A study of Mus musculus with 27 samples.

Results

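The 3 libraries taken 48 h after a serum shock were compared with the 24 libraries of the 8 other time points, 27 libraries in all. All came from C2C12 myotubes, multinucleated cells formed by a mouse myoblast line, and DNA methylation was read by reduced representation bisulfite sequencing (RRBS). Before sampling, every culture had been differentiated in medium with 2% horse serum and then held for 2 h in 50% horse serum, and no other treatment, genotype or agent separates the groups. By their labels the groups differ in time alone: 3 libraries each were made at 12, 18, 24, 30, 36, 42, 48, 54 and 60 h, and unshocked cells were not analysed here. A batch of culture, preparation or sequencing that ran along with time could not be told apart from it. C2C12 is a single established line kept in culture, so its methylation need not be that of muscle in an animal, and no transcript was measured in these libraries against which the cell type could be checked. Whether replicates were separate cultures is not stated in the labels, so p-values measure the spread between these libraries, which may be technical.

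A methyl group on the cytosine of a CpG is a lasting mark of DNA. CpG-dense stretches at gene starts are mostly free of it in active and poised genes, while bodies of genes and the sequence between genes mostly carry it. Serum shock sets the circadian clocks of a culture to one phase, after which clock and clock-driven genes cycle with a period near a day, and 24 h is one such cycle before 48 h. RRBS reads CpGs near the cutting sites of a restriction enzyme, which favours gene starts. A level is the percentage of methylated cytosine at a position, and differences are given in percentage points.

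On the autosomes, 853883 positions had a level in all 27 libraries, 93.0% of the autosomal positions in the table. Joined wherever neighbours lay at most 100 bp apart, they formed 22828 runs of at least 3 positions, with a median of 23 positions and 245 bp. The unit compared is the mean level of a run in a library. The 48 h libraries were tested against the other 24 with limma, with the replicate number as a block and Benjamini-Hochberg adjustment over all runs. A run is named here by the gene it lies in, or by the nearest start.

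At 48 h, 24 runs passed an adjusted p of 0.05, which is 0.105% of the runs tested. Methylation rose in 22 of them (0.0964%) and fell in 2 (0.00876%). The rises were small at most of these runs, with a median of 6.87 points and a range from 2.41 to 43.8 points. Of the 24 runs, 19 (79.2%) lay within 1000 bp of an annotated start, against 71.3% of all runs on chromosomes with annotated starts, and 20 (83.3%) had a mean level under 10%, against 60.5% of all runs. Runs so near the floor of the scale have little room to fall. The genes ranged from Pnpla2, a triglyceride lipase, and Cycs, the somatic cytochrome c, to Synpo2, an actin-binding protein of the muscle Z-disc, and Mettl3, the catalytic subunit that writes m6A on RNA. None of the 24 runs passed at 24 h. Without replicate 2 at 48 h, 292 runs passed, 22 of the 24 among them, while without replicate 1 or replicate 3 the counts were 27 and 18 and 6 of the 24 passed in each case. On a logit-like scale of the levels (M-values) 6 runs passed, with Pnpla2, Tmem263, Cycs and Rgs11 from the 24, and against 42 h and 54 h alone 0 passed in limma (9 libraries, 1178 runs at an unadjusted p under 0.05).

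**Figure D1:**
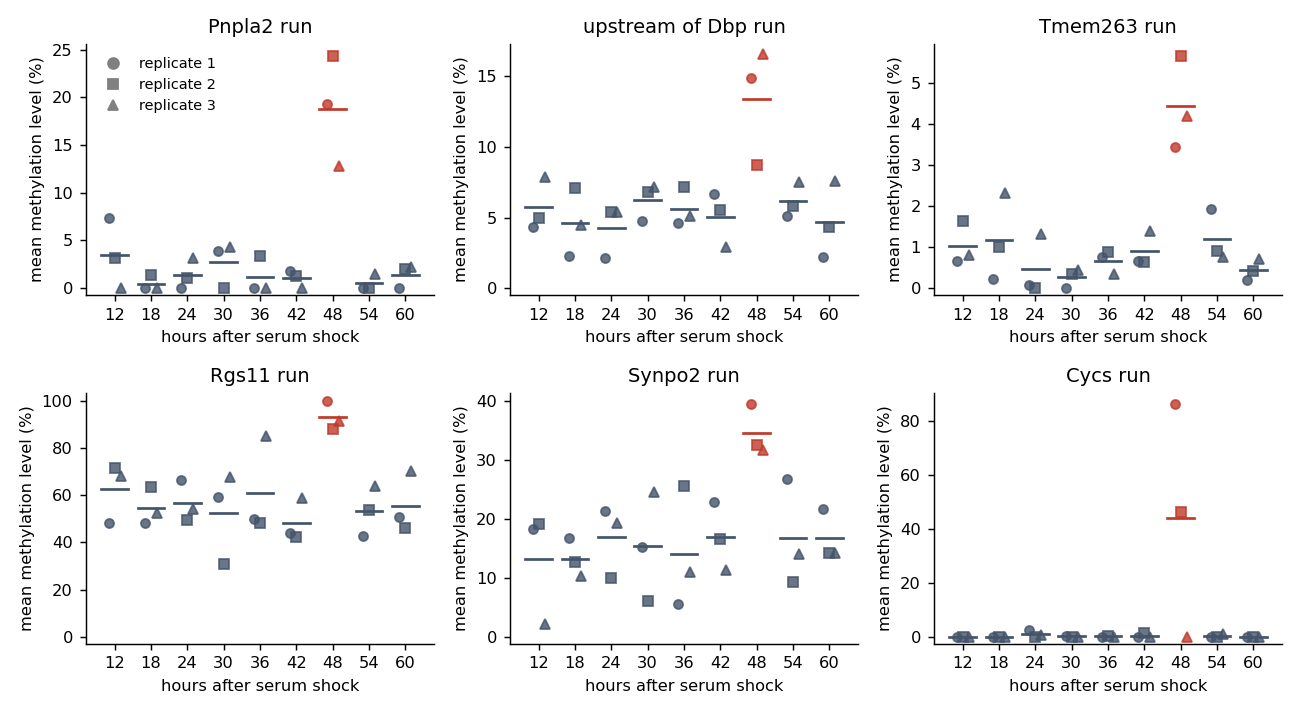
Mean methylation level (%, y axis) of 6 runs that passed at 48 h, in each library, against hours after serum shock (x axis); marker shapes give the replicate number, horizontal bars the mean of 3 libraries, and red the 48 h libraries. In the Pnpla2 run the 48 h libraries lie at 12.8% to 24.4% and the other 24 at 0% to 7.30%, whereas in the Cycs run replicate 3 at 48 h lies at 0%.

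Pnpla2 encodes adipose triglyceride lipase, which takes the first fatty acid off stored triglyceride. Its run had the smallest p-value. It spans chr7:141455481-141455673 in the mm10 build, 14 positions at 12 CpG sites, and its centre lies 389 bases into the gene from the annotated start at 141455188. At 48 h its level was 19.3% in replicate 1, 24.4% in replicate 2 and 12.8% in replicate 3. The other 24 libraries had a lowest level of 0%, a median of 1.13% and a highest of 7.30%. All 3 libraries at 48 h thus lay above every other library. The difference was 17.3 points (SE 1.51, 95% interval 14.2 to 20.4, n = 3 and 24), with a limma adjusted p of 5.10e-07.

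Along the Pnpla2 run the 3 libraries did not share one shape. Replicates 1 and 2 were highest at the end nearest the start, with 37.3% and 57.8% at the first position, and both were at 0% at the last. Replicate 3 was the reverse, with 7.94% at the first position and 51.9% at the last. Only 1 of the 14 positions had all 3 libraries above the other 24. The rise of the run's mean therefore came from one end of the run in replicates 1 and 2 and from the other end in replicate 3.

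The 3 other runs within or beside Pnpla2 did not pass. The run at chr7:141459507-141459903, inside the gene, was at 84.0%, 71.3% and 68.1% at 48 h, where the other libraries had a median of 77.4%. The run at chr7:141460414-141460551, also inside the gene, was at 81.9%, 80.4% and 86.7%, against a median of 84.4%. The third, in Cracr2b just past the end of Pnpla2 at chr7:141461687-141462155, was at 17.4%, 19.3% and 16.7% against a median of 15.9%. Their limma adjusted p-values were 0.936, 0.998 and 0.912. The body of the gene was thus highly methylated at all times, with 48 h libraries among the others.

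**Figure D2:**
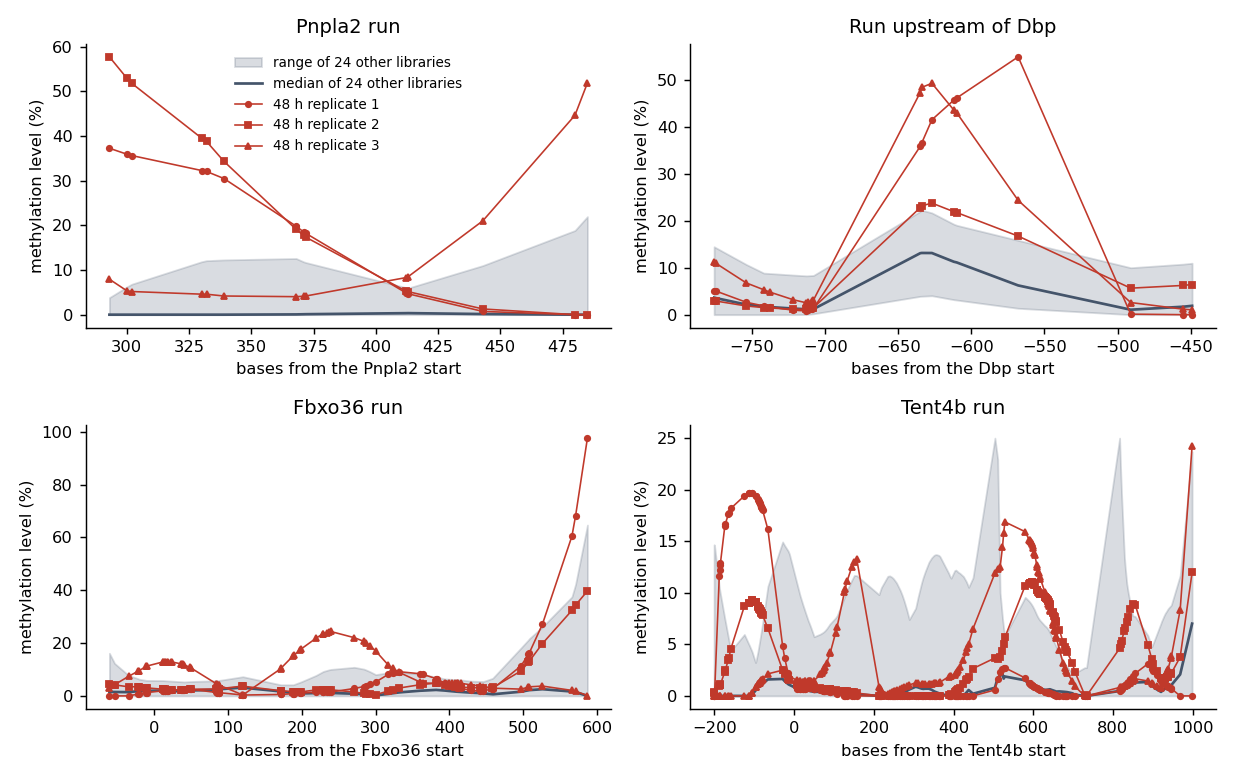
Methylation level (%, y axis) at each position of 4 runs, against the distance in bases from the named gene's start (x axis, positive into the gene); red lines are the 3 libraries at 48 h, the dark line the median of the other 24 and the grey band their range. In the Pnpla2 run replicates 1 and 2 fall from 37.3% and 57.8% to 0% while replicate 3 climbs to 51.9%; upstream of Dbp all 3 peak near the middle of the run.

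Dbp is a clock output gene, a transcription factor that the CLOCK and BMAL1 pair drives directly. A run at chr7:45704471-45704798, inside the neighbouring gene Car11, a carbonic anhydrase relative, has its centre 612 bases before the Dbp start at 45705247. Levels there were 14.9%, 8.74% and 16.6% in replicates 1, 2 and 3 at 48 h. The other 24 libraries ranged from 2.10% through a median of 5.24% to 7.88%. The groups did not overlap, although replicate 2 exceeded the highest other library only narrowly. The level rose by 8.11 points (SE 1.20, interval 5.65 to 10.6), with a limma adjusted p of 0.00340.

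In contrast to Pnpla2, the 3 libraries peaked over the same stretch of the Car11 run. At position 45704620, 627 bases before the Dbp start, they were at 41.6%, 23.8% and 49.4%, and the other libraries at 4.04% to 21.7%. At 6 of the 19 positions all 3 lay above the other 24. Toward both ends of the run the 48 h libraries fell back among the others. The next run toward Dbp, 206 bp away, was at 0% in every 48 h library and had a mean of 1.92% elsewhere, a difference that did not pass (limma adjusted p = 0.946). Without replicate 1 or without replicate 3 at 48 h, the Car11 run had a limma adjusted p of 0.0525 or 0.0676. It did not pass with M-values either (limma adjusted p = 0.182), nor with the median level per run.

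Tmem263 encodes a small transmembrane protein. Its run, chr10:85102693-85102868, holds 53 positions just past the start at 85102627. Levels at 48 h were 3.45%, 5.68% and 4.21%, and those of the other libraries ranged from 0% through a median of 0.680% to 2.33%. The groups did not overlap, but the rise was only 3.68 points (SE 0.509; limma adjusted p = 0.00175). The Tmem263 and Pnpla2 runs were the 2 that passed whichever single library was left out of the 27.

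The Rgs11 run had the highest methylation of the runs that rose. Rgs11 encodes a regulator of G protein signalling, and the run lies inside it, at chr17:26207368-26207457. It was at 100%, 88.1% and 91.3% at 48 h. The other libraries spread from 31.0% through a median of 53.1% to 85.1%. The 48 h libraries lay above all of them, 37.5 points above their mean (SE 6.20; limma adjusted p = 0.0103). A further run 303 bp along had a mean of 93.1% at 48 h and 88.0% elsewhere and did not pass (limma adjusted p = 0.886). Without replicate 1 at 48 h the Rgs11 run itself had an adjusted p of 0.0798.

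Synpo2 encodes an actin-binding protein of the muscle Z-disc. Its run, chr3:123235998-123236153, reaches over the annotated start at 123236149. Levels were 39.5%, 32.6% and 31.6% at 48 h. The other libraries ranged from 2.09% through a median of 14.8% to 26.8%. All 3 libraries at 48 h were the highest of the 27, and the mean rose by 19.2 points (SE 3.66; limma adjusted p = 0.0315). Replicate 3 was lowest at the inner end, at 0%, and highest at the start itself, at 62.0%. Without replicate 1 or replicate 3 at 48 h the Synpo2 run did not pass, with limma adjusted p-values of 0.0980 and 0.122.

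Cycs encodes the cytochrome c that carries electrons in the mitochondrial respiratory chain. Its run, chr6:50566508-50566588, covers the start at 50566569 and had the largest difference, 43.8 points (SE 7.09; limma adjusted p = 0.0103). That mean stands for 3 unlike libraries, which were at 86.0%, 46.3% and 0% at 48 h. In the other 24 the lowest level and the median were 0% and the highest was 2.46%. Replicates 1 and 2 thus stood far above all others and replicate 3 did not stand out at all. Without replicate 1 the adjusted p was 0.0525. The run 138 bp further into the gene was at 4.01% at 48 h and 4.31% elsewhere. All 15 positions of the Cycs run lie on 1 strand, so the other strand of these CpGs is not in the values.

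Gpr39, a receptor activated by zinc ions, was another such case, and was chosen for description after its values were seen. Its run, chr1:125676725-125676817, ends 179 bp before the gene. Levels were 0%, 37.1% and 17.3% at 48 h, and the other libraries had a median of 0% and a highest level of 11.4%. Replicates 2 and 3 lay above all of these and replicate 1 was at the bottom. The difference was 16.95 points (SE 3.40; limma adjusted p = 0.0404), and without replicate 2 at 48 h the adjusted p was 0.211.

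The sequences just before 3 of these starts are shown as examples in which measured cytosines fall. They come from RefSeq, build GRCm38.p6 (the same assembly as mm10), and read 5′ to 3′ toward the gene. Capitals mark measured cytosines, or the guanine opposite one on the other strand. The first is the 73 bases between the Cycs start and the start of 5430402O13Rik on the other strand, chr6:50566570-50566642 on the minus strand. The others are the 250 bases before the Gpr39 start, chr1:125676746-125676995 on the plus strand, and before the Tent4b start, chr8:88198963-88199212 on the plus strand.
Cycs: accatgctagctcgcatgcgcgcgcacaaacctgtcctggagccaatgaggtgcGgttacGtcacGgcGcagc
Gpr39: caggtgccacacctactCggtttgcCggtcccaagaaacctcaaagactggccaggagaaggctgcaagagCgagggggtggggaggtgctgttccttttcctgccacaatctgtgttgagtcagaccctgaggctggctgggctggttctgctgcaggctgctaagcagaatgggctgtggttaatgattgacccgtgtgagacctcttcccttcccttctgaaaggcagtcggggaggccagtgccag
Tent4b: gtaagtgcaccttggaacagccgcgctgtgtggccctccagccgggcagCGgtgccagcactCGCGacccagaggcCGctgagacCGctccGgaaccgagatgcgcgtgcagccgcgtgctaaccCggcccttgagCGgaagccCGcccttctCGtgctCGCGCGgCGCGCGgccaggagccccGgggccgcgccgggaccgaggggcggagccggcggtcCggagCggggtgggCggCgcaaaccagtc

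These windows differ in how much of them was measured. In the Cycs window 4 cytosines were measured and stood at 90.6%, 46.6% and 0% at 48 h, and at a mean of 0.111% elsewhere. In the Gpr39 window 3 were measured, at 0%, 28.9% and 15.5% at 48 h and a mean of 0.891% elsewhere. In the CpG-dense Tent4b window 35 were measured, at 14.98%, 5.68% and 0.844%, and at a mean of 1.25% elsewhere. Replicates 1 and 2 lay above the highest other library there, 4.30%, and replicate 3 did not. Measured cytosines also fell before other starts at runs that passed. Before Zbtb3 the 4 measured were lower at 48 h, at a mean of 0.00840% against 2.94% elsewhere. The rest of those windows were higher at 48 h, narrowly so before Kcnh1 (7.36% against 6.78%). The letters CACGTG, an E-box, searched on both strands, occur in none of the 3 windows and in 6.02% of the 32851 windows of 250 bases before annotated starts. The Cycs window is shorter, at 73 bases, and with so low a share, absence from 3 windows does not set them apart. GGGCGG, a GC box, occurs 3 times in the Tent4b window and in 32.7% of all such windows.

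Arf4, a small GTPase of Golgi transport, had a run at chr14:26638891-26639017 with 16.3%, 3.88% and 11.2% at 48 h, against 0% to 8.003% elsewhere (rise 8.32 points, SE 1.57; limma adjusted p = 0.0299). Dnajc13, an endosomal co-chaperone, had 4.44%, 2.60% and 5.16% over 74 positions at its start, chr9:104262523-104263060, against 0.0736% to 2.72% (rise 2.99 points, SE 0.584; adjusted p = 0.0357). Atf6, a sensor of stress in the endoplasmic reticulum, held a run just before the start of Gm9929, chr1:170867573-170867821, at 6.61%, 3.24% and 9.20%, against 0% to 3.69% (rise 4.67 points, SE 0.813; adjusted p = 0.0139). In each of these 3, replicate 2 lay within the range of the other times and replicates 1 and 3 above it.

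A run that rose at chr1:84839780-84840428 covers the start of Fbxo36, an F-box protein gene, within the span of Trip12, a ubiquitin ligase gene. It was at 6.60%, 4.76% and 9.90% at 48 h, against 0.618% to 4.75% elsewhere, so the groups did not overlap (rise 4.80 points, SE 0.896; limma adjusted p = 0.0272). Replicates 1 and 2 were highest at its last position, 587 bases into Fbxo36, with 97.6% and 39.7%, and replicate 3 was at 0.149% there. Replicate 3 was highest 239 bases in, at 24.4%, so this run too was raised at different places in different libraries.

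Ebf1, a transcription factor best known from B cells, had 13.1%, 1.03% and 6.94% at chr11:44618280-44618527, against 0% to 3.46% elsewhere (rise 5.97 points, SE 1.18; limma adjusted p = 0.0398). Replicate 2 was within the range of the other libraries there. Mettl3 had 7.89%, 9.08% and 13.8% at chr14:52304682-52304878, against 1.37% to 9.43%, so only replicate 3 lay above all others (rise 6.28 points, SE 1.25; adjusted p = 0.0398). Tent4b, a noncanonical poly(A) polymerase, and Zbtb3, a zinc finger protein, were chosen for description after their values were seen. Tent4b had the longest of the 24 runs, 185 positions from chr8:88199012 to 88200212, at 3.29%, 3.96% and 4.15% against 0.222% to 2.77% (rise 2.41 points, SE 0.483; adjusted p = 0.0404). Without replicate 1, 2 or 3 at 48 h the Tent4b run had a limma adjusted p of 0.0948, 0.0512 or 0.134. The Zbtb3 run, chr19:8802408-8802696, was at 8.85%, 13.8% and 22.0% against 0% to 16.3% (rise 12.1 points, SE 2.41; adjusted p = 0.0398), with replicate 3 alone above all others.

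Itfg2 belongs to a complex that holds back the mTORC1 growth pathway, and its run at the start, chr6:128424837-128424906, was at 8.84%, 4.25% and 8.39%, against 0% to 5.53% (rise 5.90 points, SE 1.05; limma adjusted p = 0.0157). Vrk3, of a kinase family, shares a run with the start of the zinc finger gene Zfp473, chr7:44748711-44748950. It was at 11.2%, 1.46% and 13.7%, against 0% to 4.96% (rise 7.46 points, SE 1.30; adjusted p = 0.0139). Replicate 2 lay within the other libraries' range in both. The run at Gm1604a and Rsph3a, the latter a protein of the cilium's radial spokes, was chr17:7946152-7946255. It was even across replicates, at 5.18%, 6.54% and 5.68%, and lay above the 0% to 3.84% elsewhere (rise 4.61 points, SE 0.757; adjusted p = 0.0103).

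In Lrrc20, a leucine-rich repeat protein gene, and D830039M14Rik the run at chr10:61476587-61476736 was at 12.1%, 7.89% and 27.5%, against 0% to 12.7% elsewhere (rise 11.9 points, SE 2.16; limma adjusted p = 0.0213). Only replicate 3 lay above the others. Outside genes, 1548 bp from Rcc2, a mitotic chromosome protein gene, the run at chr4:140699732-140699925 was at 22.9%, 10.4% and 7.54%, against 0% to 7.60% (rise 11.4 points, SE 1.96; adjusted p = 0.0139). Replicates 1 and 2 lay above all others there and replicate 3 just under the highest. Kcnh1, a voltage-gated potassium channel gene named here after its values were seen, had 10.7%, 8.53% and 10.5% over 88 positions at its start, chr1:192190520-192191242. The other libraries ranged from 4.17% to 7.97% (rise 4.15 points, SE 0.850), and with an adjusted p of 0.04999 it was the last run to pass.

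Methylation fell at 48 h in 2 runs, both inside genes and both well methylated at the other times. Sema3f encodes a secreted axon guidance protein, and its run at chr9:107708360-107708561 was at 29.9%, 46.1% and 55.9%. The other libraries ranged from 53.4% through a median of 62.4% to 70.02%, so replicates 1 and 2 lay below all of them and replicate 3 did not. The difference was -17.8 points (SE 3.43; limma adjusted p = 0.0330), and -11.0 points without replicate 1 (adjusted p = 0.267). The run at chr10:4430437-4430467, where Armt1, a protein carboxyl methyltransferase gene, and Rmnd1, needed for mitochondrial translation, overlap, was at 80.4%, 91.7% and 84.8%. Elsewhere the median was 100% and the lowest library 91.3%, so replicates 1 and 3 lay below all others and replicate 2 just inside their range. The difference was -12.0 points (SE 2.01; adjusted p = 0.0109), from 5 positions.

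**Figure D3:**
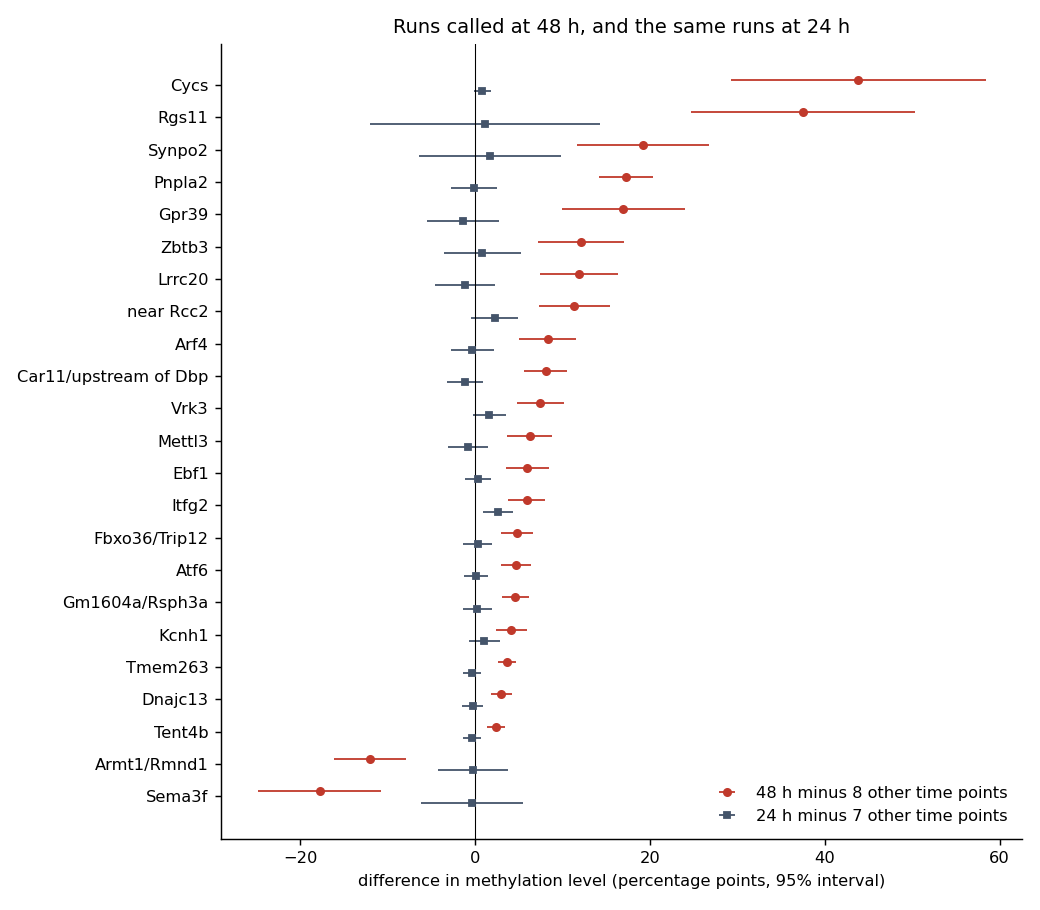
Difference in mean methylation level (percentage points, x axis) with its 95% interval for 23 of the 24 runs that passed at 48 h, one per line; circles are 48 h minus the 8 other times and squares the same runs at 24 h minus the 7 times other than 24 h and 48 h. The 24 h differences lie between -1.37 and 2.63 points, and the 48 h differences between -17.8 and 43.8 points.

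None of these runs passed one cycle earlier. The 24 h libraries were set against the 21 libraries of the 7 times other than 24 h and 48 h, and 0 of the 22828 runs passed (0%), while 901 had an unadjusted limma p under 0.05 (3.95%). Among the 24 runs that passed at 48 h, the 24 h difference was above 0 in 12 and below 0 in 12, between -1.37 and 2.63 points. Of these, 1 had an unadjusted p under 0.05: the Itfg2 run, at 1.96%, 5.53% and 3.18% at 24 h, a difference of 2.63 points (limma adjusted p = 0.834). Pnpla2 was at 0%, 1.02% and 3.20% at 24 h, a difference of -0.132 points (95% interval -2.74 to 2.48). The run upstream of Dbp was at 2.10%, 5.37% and 5.39%, a difference of -1.15 points. Tmem263 was at 0.0830%, 0% and 1.31%. In the Cycs run 24 h was the highest of the other times, at 2.46%, 0% and 0.520%. The Pnpla2 and Tmem263 levels lay within the range of the 21 remaining libraries. In 6 of the 24 runs 1 library at 24 h lay just outside that range, above it in 4 and below it in 2. In the Cycs run this library exceeded a highest remaining level of 1.34%, in the Itfg2 run one of 4.12%, and in the run upstream of Dbp it lay under a lowest remaining level of 2.18%. The others were the Gm1604a and Rsph3a, Vrk3 and Tent4b runs.

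Set directly against 24 h, in a model with every time as a factor, 2 runs of 22828 passed (0.00876%), both higher at 48 h. The Pnpla2 run was 17.4 points higher (95% interval 12.8 to 22.0; limma adjusted p = 0.00322). The other, at Trim29, a tripartite motif protein gene named after its values were seen, was at 91.0%, 87.6% and 92.9% at 48 h and at 75.2%, 76.4% and 79.2% at 24 h. Its difference was 13.6 points (interval 10.1 to 17.1; adjusted p = 0.00322). The Trim29 groups of 3 did not overlap, but against all 24 other libraries the run did not pass (adjusted p = 0.278). Its mean at 24 h, 76.9%, was the lowest of all times, so its difference reflects a low 24 h as well as a high 48 h. With the median level per run neither Pnpla2 nor Trim29 passed against 24 h (13.2 and 13.1 points, both with a limma adjusted p of 0.369). The unadjusted intervals of 48 h minus 24 h left out 0 for all 24 runs that passed at 48 h. Over all 22828 runs, 1142 had an unadjusted limma p under 0.05 against 24 h. Of the 24, only the Pnpla2 run passed here after adjustment. The 24 runs share their 48 h and 24 h libraries with the comparison that chose them, so these intervals are no separate support.

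**Figure D4:**
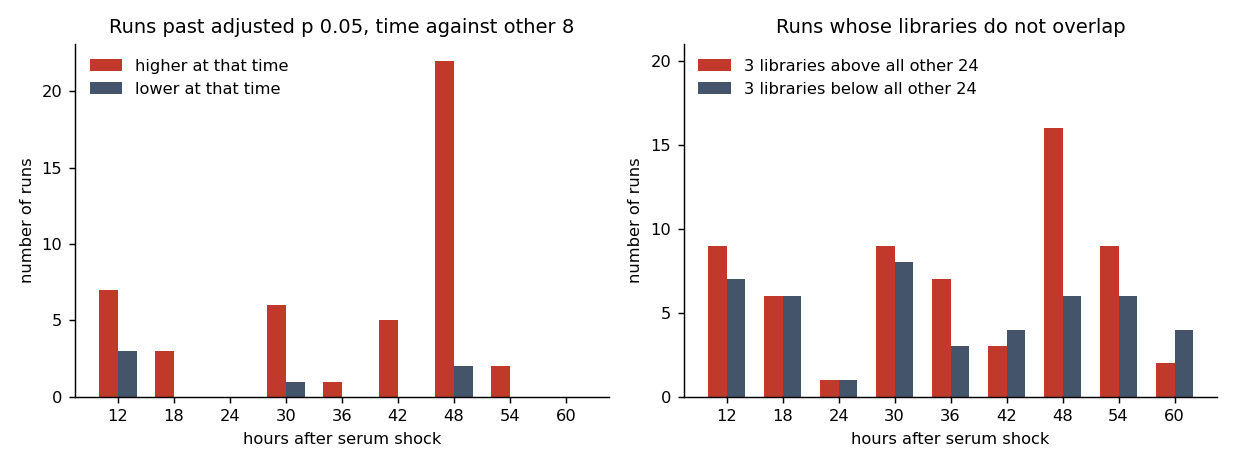
Left, number of runs (y axis) past an adjusted p of 0.05 when each time point is set against the 8 others, by direction, against hours after serum shock (x axis); right, number of runs whose 3 libraries lie above or below all other 24. At 48 h 22 runs rose and 2 fell, and 16 and 6 runs do not overlap.

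Each of the 8 other times was set against its own 8 others in the same way. The 12 h libraries gave 10 runs, 30 h gave 7, 42 h gave 5, 18 h gave 3, 54 h gave 2, 36 h gave 1, and 24 h and 60 h gave 0 in limma, with 855 and 808 runs at an unadjusted p under 0.05. The 24 of 48 h were the most. Most runs that passed at the other times had risen too: 7 of 10 at 12 h, 6 of 7 at 30 h and all at 18, 36, 42 and 54 h. By unadjusted p the times were closer together, with 7.64% of runs under 0.05 at 48 h, 7.46% at 12 h and 3.39% to 5.603% at the others. These comparisons share libraries, and the difference between their counts was not tested.

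Without any model, 16 runs had all 3 libraries at 48 h above the other 24 (0.0701%), and 6 had all 3 below (0.0263%). At the other times 1 to 9 runs lay above and 1 to 8 below. Of the 16 runs above at 48 h, 9 are among the 24 that passed. In the other 15 of the 24, at least 1 of the 48 h libraries lay among those of other times.

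The rises were unequal between replicates and did not extend far. Set against libraries of the same replicate number only, 19 of the 22 runs were higher in all 3 numbers, against 2512 of all 22828 runs. These 48 h values also chose the 22. The median difference over all 24 was 6.40 points in replicate 1, 2.68 in replicate 2 and 7.40 in replicate 3. Replicate 2 was the lowest of the 3 in 12 runs, against 7542 of all 22828. The spread of the 48 h libraries exceeded that of the other 24 in 19 of the 24 runs, against 9059 of all 22828. The 48 h values behind these counts also chose the 24 runs, so the contrasts with all runs are no separate result. For 17 runs that rose, another run lay within 5000 bp. Its difference was above 0 in 9 of the 17, where 52.2% of all runs had a difference above 0. The median over the 17 was 0.168 points, with a range of -3.25 to 5.13. Beside Gm1604a and Rsph3a, a neighbour 125 bp away was 2.75 points higher at 48 h at an unadjusted limma p of 0.00512 (adjusted p = 0.313), the only one of the 17 under 0.05.

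**Figure D5:**
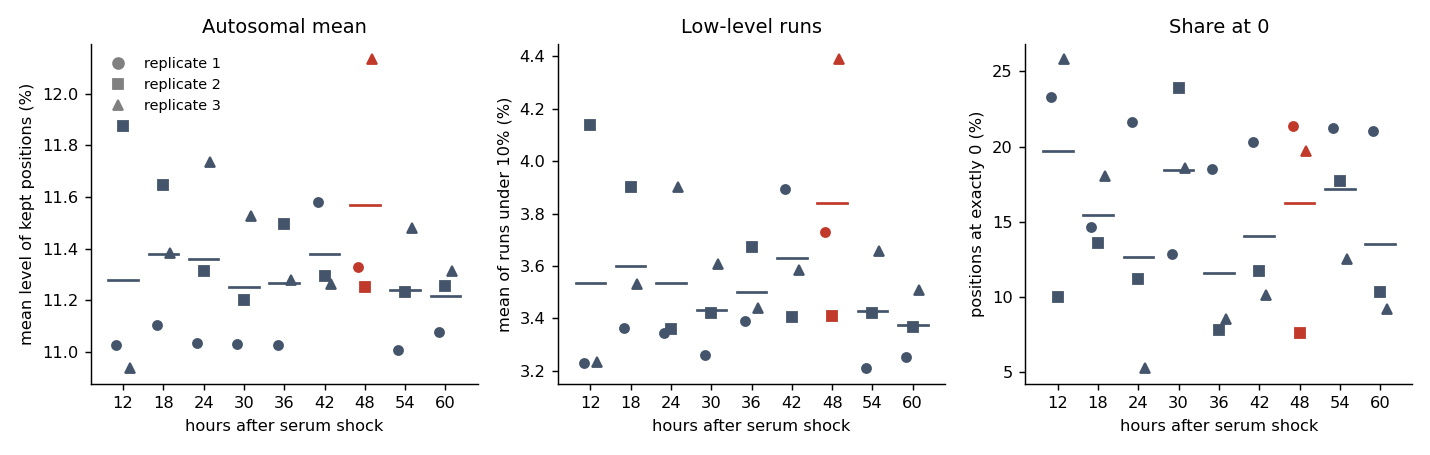
Mean level of the kept autosomal positions (left), mean over runs with a level under 10% (middle) and percentage of positions at exactly 0 (right), on the y axes, for each of the 27 libraries against hours after serum shock (x axis); shapes give the replicate number, bars the mean of 3 libraries and red 48 h. Replicate 3 at 48 h has the highest autosomal mean, 12.1%, and replicate 2 has 7.60% of positions at 0.

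The 48 h libraries also differed among themselves as a whole. Their autosomal mean level was 11.3%, 11.3% and 12.1%, and the other 24 ranged from 10.9% to 11.9%, so replicate 3 was the highest library of the series. The mean difference of 0.274 points had an exact permutation p of 0.0933 (two-sided, labels moved within replicate numbers, where the smallest possible p is 0.00137) and an adjusted p of 0.305 over 8 such measures. Over the 13815 runs with a mean level under 10%, the class that held 20 of the 24 runs, the mean was 3.73%, 3.41% and 4.39% at 48 h. The other libraries lay between 3.21% and 4.14% (difference 0.338 points, exact permutation p = 0.0494, adjusted 0.305). Of all runs in this class 52.2% were higher at 48 h, with a median difference of 0.0701 points, and of the 1115 with an unadjusted limma p under 0.05 1065 were higher. At the methylated end the split was the other way: 64 of 100 such runs of 70% to 90% and 36 of 42 of 90% or more were lower at 48 h. Levels are bounded, so runs near either end of the scale have more room to move away from it at any time. This split was not counted at the other times, so it is not shown to be particular to 48 h. With the library mean as a covariate 8 of the 24 runs passed, among them Pnpla2, Tmem263, Cycs, Rgs11, Sema3f and the run upstream of Dbp. Positions at exactly 0 made up 21.4%, 7.60% and 19.7% at 48 h, within the 5.25% to 25.8% elsewhere. The part of these library-wide differences in the single runs was not tested further.

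Positions within a run are not separate measurements. Among positions with a mean level of 10% to 90%, neighbours 2 to 20 bp apart in one library differed by a median of 0.787 points. Between 2 libraries of one time, the same position differed by a median of 6.92 points. Neighbours 50 to 100 bp apart in one library differed by 12.8 points. Levels thus changed little from one position to the next, and the positions of a short run, such as those at Cycs or Rgs11, are close to a single value in each library. Neither the way levels were computed along the sequence nor the number of reads behind them is stated in the labels or the file.

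Gene groups were described from 13 lists, which cover 741 places of a run in a list. Across all 22828 runs the median difference at 48 h was 0.0900 points, 0.0964% rose and 7.64% had an unadjusted limma p under 0.05. In the core clock list, 22 of 24 genes had 54 runs with a median of 0.374 points, and 1 rose, the run upstream of Dbp, with 5.56% under an unadjusted p of 0.05. The run of Per2, a clock repressor, at chr1:91459092-91459667, was at 0.581%, 1.16% and 0.953%, against 0.154% to 6.74% elsewhere (difference -0.961 points, limma adjusted p = 0.938). Lipid droplet and lipolysis genes had 34 runs with a median of 0.342 points, and 1 rose, at Pnpla2, with 5.88% under an unadjusted p of 0.05. Hox and other developmental genes had 160 runs with a median of 0.100 points, and 1 rose, with 6.25% under an unadjusted p of 0.05. In each of these 3 lists the share by unadjusted p was below that of all runs.

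The remaining 10 lists had 0 runs past the threshold by limma, with 33 of 493 places at an unadjusted p under 0.05 (6.69%, against 7.64% of all runs). Fatty acid oxidation and mitochondrial genes had 50 runs with a median of 0.262 points. Their leading run, at Esrra, a nuclear receptor of mitochondrial genes, was at 0%, 0% and 18.3% at 48 h, so that replicate 3 alone was high (adjusted p = 0.429). Glucose and glycogen genes had a median of -0.0666 points over 69 runs, led by Foxo1 (difference 2.12 points, adjusted p = 0.449). Muscle structure genes had a median of 0.225 points over 28 runs, led by Actn3, the fast-fibre alpha-actinin (4.80 points, adjusted p = 0.313).

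Myogenic regulators had a median of 0.241 points over 34 runs, led by Id2, which binds and blocks bHLH factors (2.10 points, limma adjusted p = 0.454). Within Myod1, the master factor of muscle fate, the run at chr7:46376422-46376849 was at 59.1%, 55.3% and 62.5% at 48 h and at 62.1%, 64.6% and 63.6% at 24 h. The other libraries against 48 h ranged from 43.3% to 64.6%, so 48 h lay among them (4.43 points, adjusted p = 0.892). At 24 h the difference was 10.2 points with an unadjusted p of 0.00110 and an adjusted p of 0.609.

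Immediate-early and serum response genes had a median of 0.127 points over 86 runs. Their leading run was at the start of Zfp36, which marks short-lived mRNAs for decay, chr7:28378974-28379301. It was at 4.97%, 3.51% and 4.85% at 48 h, against 0% to 3.29% elsewhere, so its groups did not overlap, yet it did not pass (2.98 points, limma adjusted p = 0.0670). Cell cycle genes had a median of -0.0152 points over 66 runs, led by Pcna (3.84 points, adjusted p = 0.263). Genes of DNA methylation enzymes and readers had 0.0703 points over 43 runs, led by Mbd4 (3.49 points, adjusted p = 0.198). Imprinted genes had -0.544 points over 51 runs, although their leading run, at Dlx5, had a positive difference (16.1 points, adjusted p = 0.422). Germline and pluripotency genes had 0.230 points over 31 runs, and their leading run, at Rpl10l, had a negative one (-7.83 points, adjusted p = 0.636).

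Markers of fibroblasts, adipocytes, neurons and immune cells had a median of 0.838 points over 35 runs, of which 1 was under an unadjusted p of 0.05 and 0 passed. Whether the mixture of cells differed at 48 h was not tested.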

How the data were processed

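Genomic DNA was cut with a restriction enzyme and bisulfite converted before sequencing, per the labels. The authors deposited methylation levels as a fraction from 0 to 1, with a column for each library. Per the submitters' processing notes, Trim Galore 0.4.0, cutadapt 1.9.1, Bismark 0.14.4, Bowtie2 and the mm10 build were used. Their settings, any smoothing and the read depth are not stated in these sources, so intervals cover the spread between libraries only. No count model could be used.

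Levels were turned into percent. The labels gave each column's time and replicate number. Runs held at least 3 autosomal positions (94 shorter runs of 22922 were left out). Tests used limma 3.58.1 in R 4.3.3, with empirical Bayes moderation, in 3 comparisons: 48 h against the 24 other libraries, 24 h against 21, and 48 h against 24 h. Benjamini-Hochberg adjustment ran over all 22828 runs, and all tests were two-sided. Library means were tested exactly over 729 arrangements. The fit of 48 h against the other times was tested on simulated data. The rest used pandas 2.3.3, numpy 2.4.6 and scipy 1.17.1 under Python 3.11.15, with matplotlib 3.10.9 for figures.

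Genes came from RefSeq (GRCm38.p6), whose starts as used here are incomplete and lack 1 autosome. Exons, introns and UTRs were not annotated. Positions count from 1: in windows before starts 99.982% of 227625 positions fell on a CpG. Named runs were the 20 with the smallest p-values among those that passed, the leading run of each gene list, and all runs of Pnpla2, Myod1 and Per2; some are not reported here. The comparison, the lists and the named genes were chosen with earlier results of these data known.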

Additional observations from a re-analysis of the deposited data

Results flagged for a closer look

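Runs whose 48 h and 24 h levels differed by a direct test were taken up for a closer look, and there were 2. The Pnpla2 run was 17.4 points higher at 48 h than at 24 h (limma adjusted p = 0.00322), higher in each of the 3 replicate numbers. The Trim29 run, at chr9:43311258-43311501, was 13.6 points higher at 48 h (limma adjusted p = 0.00322), from 90.5% ± 2.70 (SD, n = 3). At the 24 other libraries the Trim29 run had a mean of 82.7%. Neither run passed under 3 other settings, although both stayed higher at 48 h. With M-values the Pnpla2 difference was 3.52 (limma adjusted p = 0.866) and the Trim29 difference 1.46 (adjusted p = 0.154), both on the M-value scale. With the median level per run the differences were 13.2 and 13.1 points (adjusted p = 0.369 for both). As single positions all 14 of Pnpla2 and all 15 of Trim29 were higher at 48 h, with a smallest adjusted p of 0.340 and 0.254. These values chose the 2 runs, and positions within a run are not separate measurements. The shared direction over positions or replicate numbers is therefore no separate support.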

How the results depend on the processing

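The count of 24 runs at 48 h varied most with which libraries entered. Leaving out single libraries gave 17 to 292 runs, with 292 without 48 h replicate 2 and 38 without 42 h replicate 1. Leaving out a replicate number gave 12 to 142. Without 48 h replicate 1, 18 of the 24 lost their call, and likewise without replicate 3. Some calls were also lost without a single library of another time. Of the 27 fits that each left out 1 library, the Kcnh1 run passed in 7, Gpr39 in 10 and Tent4b in 12. Zbtb3 passed in 14 of them, Ebf1 in 15 and Mettl3 in 16. Other settings gave 6 runs with M-values, 42 with the median level per run, 1 among runs of 10% to 90% (Rgs11), 37 among runs of at least 10 positions, 8 with the library mean as a covariate, 47 with trend and robust moderation, 5 with time as a factor and 0 against 42 h and 54 h only. With time as a factor 4 of the 24 kept their call: Pnpla2, Tmem263, Itfg2 and the run upstream of Dbp. With the median level per run 16 of the 24 did. With the 24 h libraries left out of the controls 16 runs passed, 13 of the 24 among them. As single positions 1977 passed, 1941 of them higher, in 380 runs that include 19 of the 24.

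At 24 h, 2 runs passed with the median and 144 single positions, and 3 to 11 runs without one 24 h library. For 48 h against 24 h the count was 0 with M-values, with the median, among runs of 10% to 90% and as single positions, and 0 to 21 without one library. The gene list count of 3 became 1 with M-values, 0 among runs of 10% to 90%, 0 against 42 h and 54 h only, and 1 to 9 without one library or number.

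The labels give the replicate numbers no shared source, and the pairing check was not met: deviations of same-numbered libraries correlated at -0.0377 to 0.0320 over 108 pairs. The numbers were still not without pattern: 19 of 27 libraries correlated best on average with their own number, where chance gives 9, and replicate 1 had the lowest mean over runs of 90% or more at all 9 times. Without the replicate block 33 runs passed at 48 h, 23 of the 24 among them, 5 at 12 h and 7 at 18 h, and 0 at 24 h.

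Leaving out one 48 h library moved the library measures as follows, in points of difference except for a count. The autosomal mean ranged from -0.00632 to 0.434, runs under 10% from 0.0647 to 0.555, runs of 10% to 30% from -0.140 to 0.667, runs of 70% to 90% from -0.503 to 0.0253 and runs of 90% or more from -0.388 to -0.0106. The share at 0 ranged from -1.68 to 5.20 and the count of positions without a value from -1918 to 2769. The inner Pnpla2 run starting at 141460414, at 0.117 points, turned to -0.0259 on the M-value scale and to -0.0890 points with the covariate. Its single position with the smallest p was at -4.03 points. Without one library the run ranged from -0.562 to 1.17 points. Without one library the Esrra run ranged from -1.02 to 8.17 points and the Pnpla2 run starting at 141459507 from -8.98 to 0.937, each turning without 48 h replicate 3. The cause was not tested. The depth behind the levels is unknown, so small levels cannot be weighed by it.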
